A study of Rattus norvegicus with 18 samples.

Results

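The genes described here are 7 genes of extracellular matrix breakdown and its control: the matrix metalloproteinases Mmp2, Mmp9 and Mmp14, the tissue inhibitors of metalloproteinases Timp1, Timp2 and Timp3, and the matrix protease Adamts1. They were chosen by name, and every array probe set annotated to one of them was taken, out of 14217 genes that had a probe set of their own on the array. The rule gave 14 of the 31042 probe sets other than controls. A probe set was tested where its signal passed 40.8 on at least 3 arrays, which 12 of the 14 did, among 21675 probe sets in all. Both probe sets of Mmp9 stayed below that signal on all 18 arrays, so the counts below cover 6 genes and 12 probe sets.

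RNA came from whole lungs of Wistar rats at fetal day 19 (FD19, which the labels place in the canalicular stage), fetal day 22 (FD22, the saccular stage before birth) and postnatal day 1 (P1, the saccular lung 5 h after birth). Lungs from 3 separate litters were collected at each stage and frozen, and each of the 9 lysates gave 1 total RNA and 1 polysomal RNA sample, hybridised to 18 Affymetrix arrays. Polysomal RNA is the RNA recovered with more than 7 ribosomes per message, so the polysomal signal relative to the total signal of the same lysate describes how much of a message sat on large polysomes. No animal was treated or mutant. Fetuses were delivered by Cesarean section and newborns were born vaginally, so birth, route of delivery and age cannot be told apart between FD22 and P1. In whole lung, fewer cells of a type and less RNA per cell cannot be told apart either.

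Matrix metalloproteinases are zinc proteases that are made as inactive proenzymes and cut collagens, elastin, proteoglycans and many cell surface proteins. Mmp14 is anchored in the cell membrane, and together with Timp2, which forms a bridge between these proteases, it activates proMmp2 at the cell surface. The TIMPs bind the active site of metalloproteinases; Timp3 is held in the extracellular matrix and also inhibits ADAM and ADAMTS proteases, and Timp1 is a poor inhibitor of Mmp14. In the lung around birth the distal air spaces widen, the septa thin and elastin is laid down, a period in which matrix is both made and cut.

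The start regions of the 3 inhibitor genes are shown because the stage differences called for their messages were not alike. Promoter windows of 300 bases from RefSeq, 250 before to 50 after the gene start, were matched for 4 of the 7 genes (Timp1, Timp2, Timp3 and Adamts1). All of those printed lie on the minus strand of GRCr8 and are given 5′ to 3′ in the direction of transcription: Timp1 at chrX:3771073-3771372, Timp2 at chr10:104089165-104089464 and Timp3 at chr7:19459509-19459808. Capitals mark matches, on either strand, to a GC box (GGGCGG), an ETS core (CCGGAA or AGGAAG), an AP-1 site (TGANTCA) or a TATA box (TATAAA).
Timp1: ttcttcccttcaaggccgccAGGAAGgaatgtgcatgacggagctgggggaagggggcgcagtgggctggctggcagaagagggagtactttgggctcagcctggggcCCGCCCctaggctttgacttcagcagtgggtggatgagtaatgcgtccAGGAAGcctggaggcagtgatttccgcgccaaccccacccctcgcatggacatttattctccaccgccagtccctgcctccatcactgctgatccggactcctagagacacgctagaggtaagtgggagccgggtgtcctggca
Timp2: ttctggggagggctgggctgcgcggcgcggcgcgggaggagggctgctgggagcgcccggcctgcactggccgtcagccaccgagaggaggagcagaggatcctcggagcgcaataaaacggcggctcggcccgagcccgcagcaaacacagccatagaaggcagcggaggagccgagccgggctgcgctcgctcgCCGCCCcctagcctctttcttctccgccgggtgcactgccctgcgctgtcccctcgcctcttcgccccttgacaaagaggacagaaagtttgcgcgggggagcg
Timp3: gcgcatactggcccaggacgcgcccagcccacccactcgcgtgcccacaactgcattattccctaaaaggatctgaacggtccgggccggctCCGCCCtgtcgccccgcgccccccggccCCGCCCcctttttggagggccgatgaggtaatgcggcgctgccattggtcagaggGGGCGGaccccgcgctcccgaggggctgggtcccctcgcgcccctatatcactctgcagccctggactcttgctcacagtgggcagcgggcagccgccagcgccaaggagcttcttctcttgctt

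The Timp1 window held 2 ETS matches and 1 GC box, the Timp2 window held 1 GC box, and the Timp3 window held 3 GC boxes. Among 33469 RefSeq promoter windows of the same length, 44.3% held an ETS match and 33.1% a GC box, so neither motif is rare. No window of the 4 held the exact AP-1 letters TGANTCA, which 7.33% of all windows held. Sites that differ from these letters were not searched for. The Timp1 window holds 1 such run, tgagtaa, which differs at 1 base and lies shortly before an ETS match. Its use as an AP-1 site was not tested. A TATA box (14.2% of all windows) was matched in Adamts1 but in none of the inhibitors. The windows were rich in G and C, at 61.3% in Timp1, 70.3% in Timp2 and 68.7% in Timp3. These matches describe the letters of the windows and were not tested against the signals.

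The groups were compared on log2(signal + 5.5) in 1 limma fit of all 18 arrays, with p-values adjusted by Benjamini-Hochberg over the 21675 probe sets; a difference was called where the adjusted p was under 0.05. All log2 differences below are on that scale, which understates changes of dim probe sets, and each is given ± its standard error. Signals are linear array units and are comparable between arrays for 1 probe set, not between probe sets. Where groups of arrays are said not to overlap, this describes the signals only. The share of all probe sets that separate in this way was not counted, so separation adds no support to a difference.

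Timp3 carried the largest changes of the set. From FD19 to FD22 all 4 of its probe sets rose in total and in polysomal RNA, and at P1 all 4 still stood above FD19. In total RNA, probe set 1375138_at read 1030.9, 623.9 and 876 on the FD19 arrays, 3152.9, 2915.3 and 3004.7 at FD22, and 3861.1, 3761.2 and 3970.4 at P1. The 3 stages did not overlap. Its log2 difference was 1.86 ± 0.167 between FD19 and FD22 (limma, adjusted p = 8.43e-07) and 2.22 ± 0.167 between FD19 and P1 (adjusted p = 3.79e-08). The step from FD22 to P1 (0.35 ± 0.167, limma, adjusted p = 0.288) was not called.

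In polysomal RNA the same probe set read 871.5, 1044.9 and 1472.8 at FD19, 2688.4, 2683.2 and 3211.8 at FD22, and 3473.9, 3760.8 and 3533.7 at P1. Every FD22 array was again above every FD19 array, by 1.37 ± 0.167 on the log2 scale (limma, adjusted p = 2.56e-05). Across the 4 probe sets the rise from FD19 to FD22 lay between 2.64-fold and 4.57-fold in total RNA and between 2.58-fold and 2.75-fold in polysomal RNA. From FD19 to P1 it lay between 2.90-fold and 7.45-fold in total RNA and between 3.24-fold and 6.17-fold in polysomal RNA, and all 16 of these calls held under every alternative processing.

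The 4 probe sets of Timp3 followed each other over the 18 arrays, with Pearson's r between 0.876 and 0.97 (a description: the arrays share lysates and stages). They parted in the step across birth. In polysomal RNA 1372926_at went from 500.9, 592.2 and 668.4 at FD22 to 1099.6, 1206.6 and 1251.6 at P1, a rise of 1.01 ± 0.23 without overlap (limma, adjusted p = 0.0101). Probe set 1368989_at rose by 1.17 ± 0.298 (adjusted p = 0.0201), but with FD22 replicate 1, P1 replicate 2 or P1 replicate 3 left out its adjusted p was 0.0906, 0.0561 and 0.0871, and with arrays numbered 2 and 3 only 0.0512. For 1389836_a_at the same step measured 0.49 ± 0.179 (adjusted p = 0.103) and for 1375138_at 0.33 ± 0.167 (adjusted p = 0.261), neither called.

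In total RNA no Timp3 probe set was called between FD22 and P1. Probe set 1368989_at came nearest, at 495, 387.2 and 259.5 before birth and 1041.1, 640.4 and 533.1 after it. Its groups did not overlap, and the difference of 0.94 ± 0.298 had a limma adjusted p of 0.0921, which was 0.0369 with FD22 replicate 1 left out. In the plot of the Timp3 signals every FD22 array lies above every FD19 array of the same RNA kind.

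**Figure D1:**
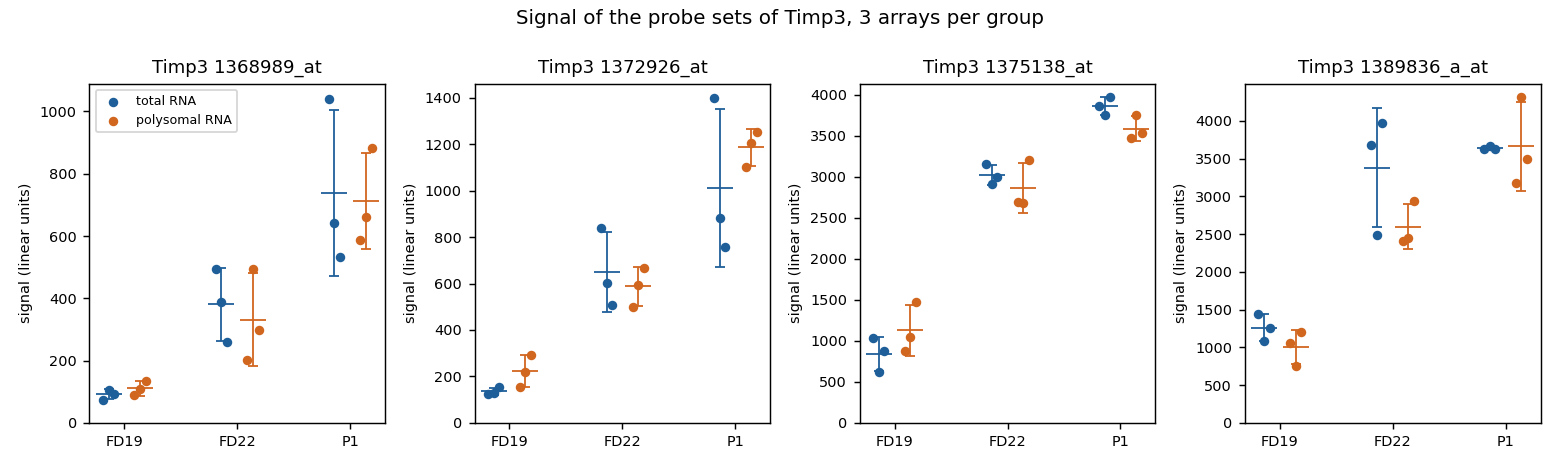
Signal of each Timp3 probe set (vertical axis, linear array units starting at 0) at FD19, FD22 and P1 (horizontal axis), with 1 point per array in total and in polysomal RNA and the mean and SD of the 3 arrays. In every panel the FD19 arrays sit lowest and all FD22 and P1 arrays lie above them.

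Markers of other cells moved over the same arrays. The summed signal of 7 of 8 endothelial marker genes ran from 2574 to 2703.8 at FD19, 4063.6 to 4496.6 at FD22 and 3563.6 to 4245.8 at P1 in total RNA, and that of 8 of 11 macrophage markers (Adgre1 was below the signal filter) from 2553.1 to 2671.9, 6196.4 to 9359.1 and 6354.5 to 8305.4. Most of this macrophage sum was Lyz2, at 1499.5 to 1686.9 at FD19 and 4818.1 to 7999.4 at FD22. Of the 8 macrophage genes 5 rose and none fell in that step, where 9.68% of all genes rose and 10.3% fell. C1qa (194.5 to 211.2, then 178.6 to 203.7) and C1qb (136 to 177.9, then 119.7 to 133.5) did not rise. In polysomal RNA the endothelial sums were 2853.4 to 3418.3, 4760.2 to 5382 and 4144.7 to 4950.2, and the macrophage sums 3227.3 to 5567.6, 4711.2 to 6537.2 and 5736.5 to 8624.2. The sum of 9 fibroblast and mesenchyme markers stayed between 7528.1 and 8854.4 on all 9 total RNA arrays, but in polysomal RNA it ran from 6395.1 to 6681.2 at FD19, 7537.5 to 9248.6 at FD22 and 6714.3 to 8412.1 at P1, with FD19 below the other stages. Col1a1 was the largest part of the total RNA sum, at 4102.3 to 4684.6 at FD19 and 3789.5 to 4390.9 at FD22. Tcf21, of the same list, read 707.6 to 883.8 and then 1433.8 to 1704.7. Of the 9 genes 2 rose and none fell between these stages in total RNA. The part of these cell types in the Timp3 result was not tested. The genes whose brightest probe set tracked that of Timp3 most closely, over 18 arrays and 11589 genes, were Adgrf5 (r = 0.964), an adhesion receptor, Ace (r = 0.963), the angiotensin-converting enzyme, and Aebp1 (r = 0.958).

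Timp1 followed another course: it fell before birth and rose after it. In total RNA its single probe set, 1367712_at, read 668.3, 661.9 and 599.1 at FD19, 351.3, 464.6 and 340.7 at FD22, and 562.2, 559.2 and 641.5 at P1. Every FD22 array was below every array of the other stages, and FD19 and P1 overlapped. The fall was 1.67-fold, a log2 difference of -0.74 ± 0.129 (limma, adjusted p = 0.000504), and the rise to P1 was 0.61 ± 0.129 (adjusted p = 0.0102; 0.0665 without P1 replicate 3 and 0.106 with arrays numbered 2 and 3 only). Between FD19 and P1 the difference was -0.13 ± 0.129 (95% interval -0.4 to 0.14, adjusted p = 0.513).

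The same course was seen in polysomal RNA, with 913, 858.2 and 836.1 at FD19, 583.8, 671.4 and 542.3 at FD22, and 991.3, 1134.9 and 1061.4 at P1. Here the 3 stages did not overlap, and P1 was highest. Timp1 fell by 0.54 on the log2 scale from FD19 to FD22 (SE 0.129, limma adjusted p = 0.00705; 0.088 with arrays numbered 2 and 3 only) and rose by 0.82 ± 0.129 from FD22 to P1 (adjusted p = 0.000726). The polysomal P1 level was above FD19 by 0.29 ± 0.129, which was not called (adjusted p = 0.106; 0.047 with median centring).

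Of 6 smooth muscle markers, 4 fell from FD19 to FD22 in total RNA and 5 in polysomal RNA (10.3% and 9.56% of all genes fell). From FD22 to P1 none was called in total RNA and 3 rose in polysomal RNA, where 4.74% of all genes rose. Their summed signal ran from 3316.6 to 4526.9 at FD19, 2041.3 to 2379.8 at FD22 and 2277.1 to 3212 at P1 in total RNA, and from 3400.6 to 3779.9, 1892.1 to 2092.3 and 2684.9 to 3595.8 in polysomal RNA. Erythroid markers also fell from FD19 to FD22, 3 of 6 in total and 6 of 6 in polysomal RNA. Of 5 cartilage markers 2 fell in each RNA kind. None of either list was called from FD22 to P1. The part of these cell types in the Timp1 course was not tested. The genes tracking Timp1 most closely were Pno1 (r = 0.956), Lrrc59 (r = 0.955) and Abt1 (r = 0.953); Pno1 is a factor of small ribosomal subunit assembly. Timp1 and Timp3 themselves gave r = -0.269 over the 18 arrays.

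Timp2 rose in total RNA, while no stage difference of its polysomal signal was called. The change of its polysomal to total ratio from FD19 to P1 was not called either (limma, adjusted p = 0.213 on 1386940_at and 0.349 on 1367823_at). Probe set 1386940_at read 1021.1, 987.1 and 1017.4 at FD19, 1329.1, 1405.9 and 1246.1 at FD22, and 1643.2, 1378.9 and 1519.6 at P1 in total RNA. All FD22 and P1 arrays were above all FD19 arrays. From FD19 to P1 it rose by 0.58 ± 0.11 (limma, adjusted p = 0.000581), a call that held under every alternative.

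The earlier part of the Timp2 rise, from FD19 to FD22, measured 0.39 ± 0.11 (limma, adjusted p = 0.0191). Without FD19 replicate 1, 2 or 3 or FD22 replicate 2 the difference was about as large (0.40, 0.38, 0.40 and 0.35), but the call was lost (adjusted p = 0.0542, 0.0787, 0.0653 and 0.0813), as it was with arrays numbered 2 and 3 only (0.0513). In polysomal RNA the signals were 1382.4, 1330.4 and 1303.7 at FD19, 1871.5, 1562.6 and 1407.1 at FD22, and 1474.3, 1382.3 and 1332.1 at P1. FD22 lay above FD19 without overlap, by 0.26 ± 0.11 (adjusted p = 0.124, and 0.0403 after quantile normalization), and P1 overlapped FD19, differing by 0.06 ± 0.11 (95% interval -0.171 to 0.29).

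The dimmer Timp2 probe set, 1367823_at, gave the same directions in total RNA. It read 185.4, 155.6 and 196.1 at FD19, 289.3, 227.2 and 307.3 at FD22 and 375.7, 218.5 and 291 at P1, with rises of 0.60 ± 0.182 to FD22 (limma, adjusted p = 0.0302) and 0.68 ± 0.182 to P1 (adjusted p = 0.00917). The FD22 call was lost without FD19 replicate 1, 2 or 3 or FD22 replicate 1 or 3 (adjusted p = 0.0726, 0.142, 0.0544, 0.0887 and 0.0955), and the P1 call without FD19 replicate 2 or P1 replicate 1 (0.0595 and 0.0764). With arrays numbered 2 and 3 only both were lost (0.115 and 0.128). Its polysomal difference between FD19 and P1 was -0.01 ± 0.182. The genes nearest to Timp2 in pattern were Smpd1 (r = 0.895), the acid sphingomyelinase of lysosomes, Ankra2 (r = 0.871) and Tmem204 (r = 0.871).

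Of the proteases, Mmp14 had called stage differences on 1367860_a_at in polysomal but not in total RNA. The change of its polysomal to total ratio from FD19 to P1 was not called (limma, adjusted p = 0.156), so the RNA kinds were not shown to differ. In total RNA 1367860_a_at read 2516.3, 1968.7 and 2008.3 at FD19, 1973.7, 1944.5 and 2164.8 at FD22, and 1806.4, 2060.1 and 1794.2 at P1. These groups overlapped, and the differences of -0.09, -0.10 and -0.19 (FD22 against FD19, P1 against FD22 and P1 against FD19, each SE 0.12) had limma adjusted p-values of 0.701, 0.735 and 0.27.

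In polysomal RNA Mmp14 read 1369.8, 1449.4 and 1522.9 at FD19, 1739.6, 1700.6 and 2260.4 at FD22, and 1953.4, 2030.1 and 1972.1 at P1. All FD22 and P1 arrays were above all FD19 arrays. From FD19 to P1 it rose by 0.46 ± 0.12, or 1.37-fold (limma, adjusted p = 0.0073), in every alternative run. The rise to FD22 (0.38 ± 0.12, adjusted p = 0.0366) was lost without FD19 replicate 1, 2 or 3 (0.0968, 0.105 and 0.0639), without P1 replicate 3 (0.052) and without FD22 replicate 3, where it measured 0.25 (0.196). It was also lost with no signal filter (0.0667), no variance trend (0.0797) and arrays numbered 2 and 3 only (0.0939).

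A second Mmp14 probe set, 1378225_at, did not share this pattern. Its signals lay between 111.9 and 320.2, no stage difference was called, and its polysomal difference between FD19 and P1 was -0.29 ± 0.284 (limma, adjusted p = 0.5). Over the 18 arrays the 2 probe sets gave r = -0.0988, so the polysomal rise rests on 1367860_a_at alone. The closest genes in pattern to 1367860_a_at were Cdc5l (r = 0.891), a splicing factor, Ankrd17 (r = 0.888) and Pxdn (r = 0.876), a peroxidase that crosslinks collagen IV.

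Mmp2, the gelatinase that Mmp14 activates, had no called stage difference. In total RNA 1370301_at read 1179.7, 894.2 and 925.5 at FD19, 1215.7, 1006.6 and 982.5 at FD22, and 1306.9, 1126.6 and 934.5 at P1, and the 3 groups overlapped. Between FD19 and P1 the log2 difference was 0.16 ± 0.152, with a 95% interval from -0.155 to 0.483. In polysomal RNA the FD19 arrays (981.3, 817.8 and 728.4) lay below the FD22 arrays (1164.5, 1008.5 and 1166.6), and the P1 arrays (1214, 957 and 1097.6) overlapped both.

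That polysomal step of Mmp2 from FD19 to FD22 measured 0.41 ± 0.152 (limma, adjusted p = 0.0778). With the replicate number as a block its adjusted p was 0.0111, and it was 0.0381 without FD19 replicate 1. The block sets 1 shift per number over all 3 stages of an RNA kind, although each stage had its own litters. Equal numbers deviated together between FD19 and FD22 (r = 0.226 to 0.498), but less elsewhere in polysomal RNA (down to r = 0.0554). From FD19 to P1 the polysomal difference of Mmp2 was 0.37 ± 0.152 (limma, adjusted p = 0.0751). Its adjusted p was 0.0299 without FD19 replicate 1 and 0.0378 with median centring. The other Mmp2 probe set, 1369825_at, was dim, at 24.3 to 80.4, and passed the signal filter on 2 of the 9 polysomal arrays. It gave r = 0.0735 with 1370301_at. Piezo1 (r = 0.89), a stretch-gated channel, Dync1h1 (r = 0.862) and Man2b1 (r = 0.858) came closest to Mmp2.

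Mmp9, the gelatinase of neutrophils and macrophages, was near the bottom of the signal range at each stage. Probe set 1369166_at read between 1 and 22.1 on the 18 arrays and 1398275_at between 1 and 30.6. On 1398275_at the total RNA signals were 2.9, 1.5 and 2.1 at FD19, 2.3, 4.5 and 4.6 at FD22, and 15.4, 9.2 and 22.7 at P1, and the polysomal signals were 1.2, 1 and 1.7, then 12.6, 4.6 and 27.2, then 30.6, 20.5 and 21.8.

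On that probe set every P1 array was above every FD19 array. Without the signal filter the limma adjusted p of the P1 against FD19 difference was 0.00584 in total and 0.00019 in polysomal RNA. The signals lie so near the added constant of 5.5 that no fold change is given, and the P1 arrays of 1369166_at (18.2, 5 and 18.2 in total RNA) overlapped its FD19 arrays (9.5, 10.3 and 1). Of 12 neutrophil markers 6 were on the array, and 4 of those passed the filter. Their summed signal ran from 592.8 to 848.2 at FD19, 1650 to 1982.1 at FD22 and 1624.7 to 3104.5 at P1 in total RNA. In polysomal RNA it ran from 517.1 to 894.8, 1191.1 to 2240.8 and 1628.6 to 3461.6. Most of the total RNA sum at FD22 was S100a9 (935.5 to 1254.7) and S100a8 (516 to 655.8). The receptors Csf3r and Cxcr2, which define neutrophils, were below the filter, and the part of these cells in the Mmp9 signal was not tested.

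Adamts1, a secreted protease that cuts versican and aggrecan, rose before birth in both RNA kinds. In total RNA 1368223_at read 503.3, 654.1 and 625.4 at FD19, 777.2, 935.5 and 1091.3 at FD22, and 797.2, 848.8 and 855.1 at P1. In polysomal RNA it read 375.4, 568.9 and 597.5, then 752.4, 808.3 and 1120, then 749.8, 629 and 743.6. In both, all FD22 and P1 arrays were above all FD19 arrays.

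From FD19 to FD22 Adamts1 rose by 0.80 ± 0.181, or 1.74-fold, in polysomal RNA (limma, adjusted p = 0.00477), in every alternative run. The rise of 0.64 ± 0.181 in total RNA (adjusted p = 0.0194) was lost without FD19 replicate 1 (0.0529), FD22 replicate 2 (0.0522) or FD22 replicate 3 (0.0661). At P1 it stood above FD19 by 0.49 ± 0.181 in total RNA (limma, adjusted p = 0.0512). The adjusted p was 0.0146 with the replicate block, 0.0365 with median centring, and 0.04 and 0.0289 without FD22 replicate 1 and 3. In total RNA equal numbers deviated together between FD19 and P1 (r = 0.119 to 0.313). They did not in every pair of stages (r = -0.0307 for replicate 3 of FD19 and FD22). In polysomal RNA the P1 value of Adamts1 was 0.48 ± 0.181 above FD19 (limma, adjusted p = 0.0528). Its adjusted p was 0.0283 with median centring, and 0.0407, 0.0414 and 0.0301 without FD19 replicate 3, FD22 replicate 1 and FD22 replicate 3. Slc2a13 (r = 0.92), Camsap2 (r = 0.914) and Tbc1d4 (r = 0.914) were nearest to it in pattern.

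**Figure D2:**
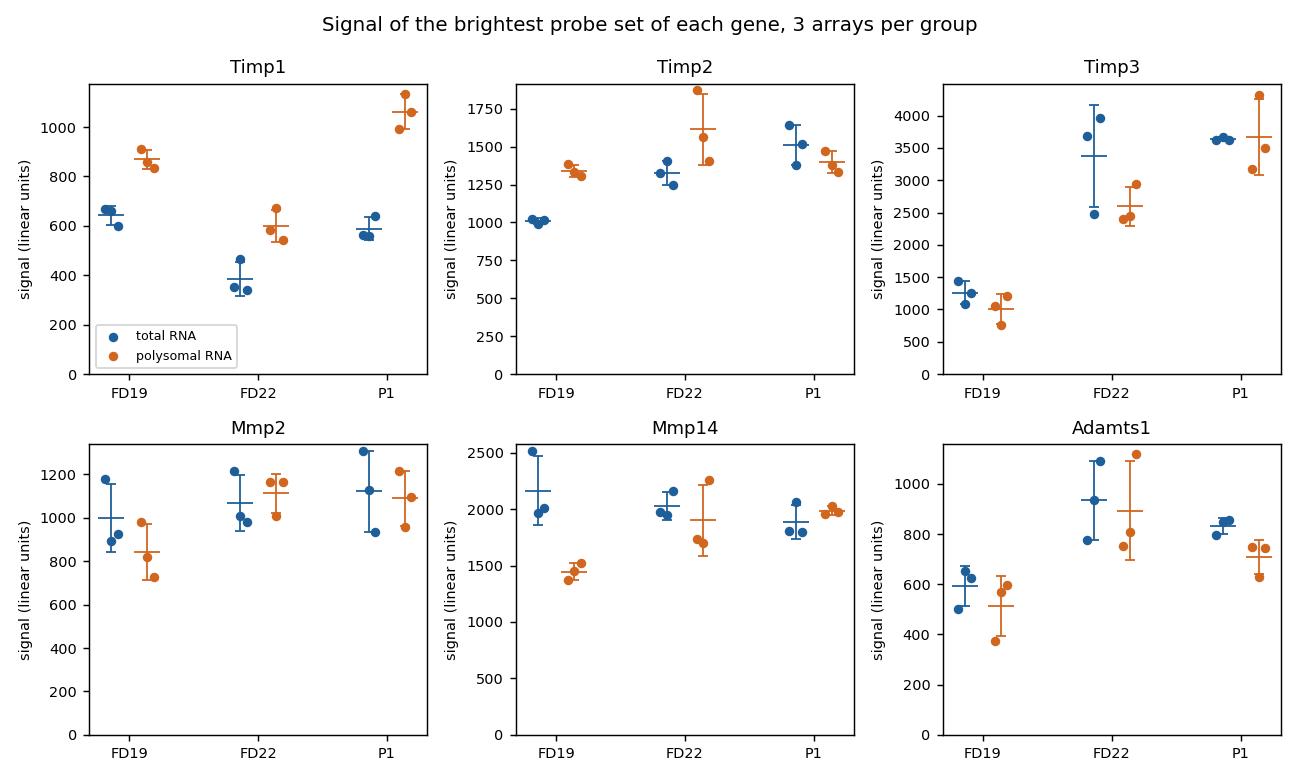
Signal of the brightest probe set of each of the 6 genes above the signal filter (vertical axis, linear array units starting at 0) at FD19, FD22 and P1 (horizontal axis), with 1 point per array in total and polysomal RNA and the mean and SD of the 3 arrays. The FD22 arrays of Timp1 are its lowest in each RNA kind, and Timp3 and Adamts1 are lowest at FD19.

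Over the whole set, 7 of the 12 probe sets rose and 1 fell between FD19 and FD22 in total RNA, where 8.42% of all probe sets tested rose and 7.82% fell. In polysomal RNA 6 rose and 1 fell, against 8.22% and 7.7%. Of these, 4 in each RNA kind belong to Timp3, and probe sets of 1 gene are not separate evidence. The median log2 difference of the 12 was 0.49 in total and 0.39 in polysomal RNA, beside 0.01 and -0.02 over all probe sets.

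Across birth, 1 of the 12 rose from FD22 to P1 in total RNA (Timp1), where 2.21% of all probe sets rose and 1.76% fell, and 3 rose in polysomal RNA (Timp1 and 2 of Timp3), where 3.79% rose and 4.55% fell. None fell in either. Between FD19 and P1, 6 rose in total RNA (4 of Timp3 and 2 of Timp2; 12.4% of all rose and 13.7% fell) and 5 in polysomal RNA (4 of Timp3 and 1 of Mmp14; 13.1% and 15.8%), and none fell in either. With median centring, which subtracts each array's median, 8 rose in that polysomal comparison. The plot of the stage differences shows both steps, before and across birth, with their intervals.

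**Figure D3:**
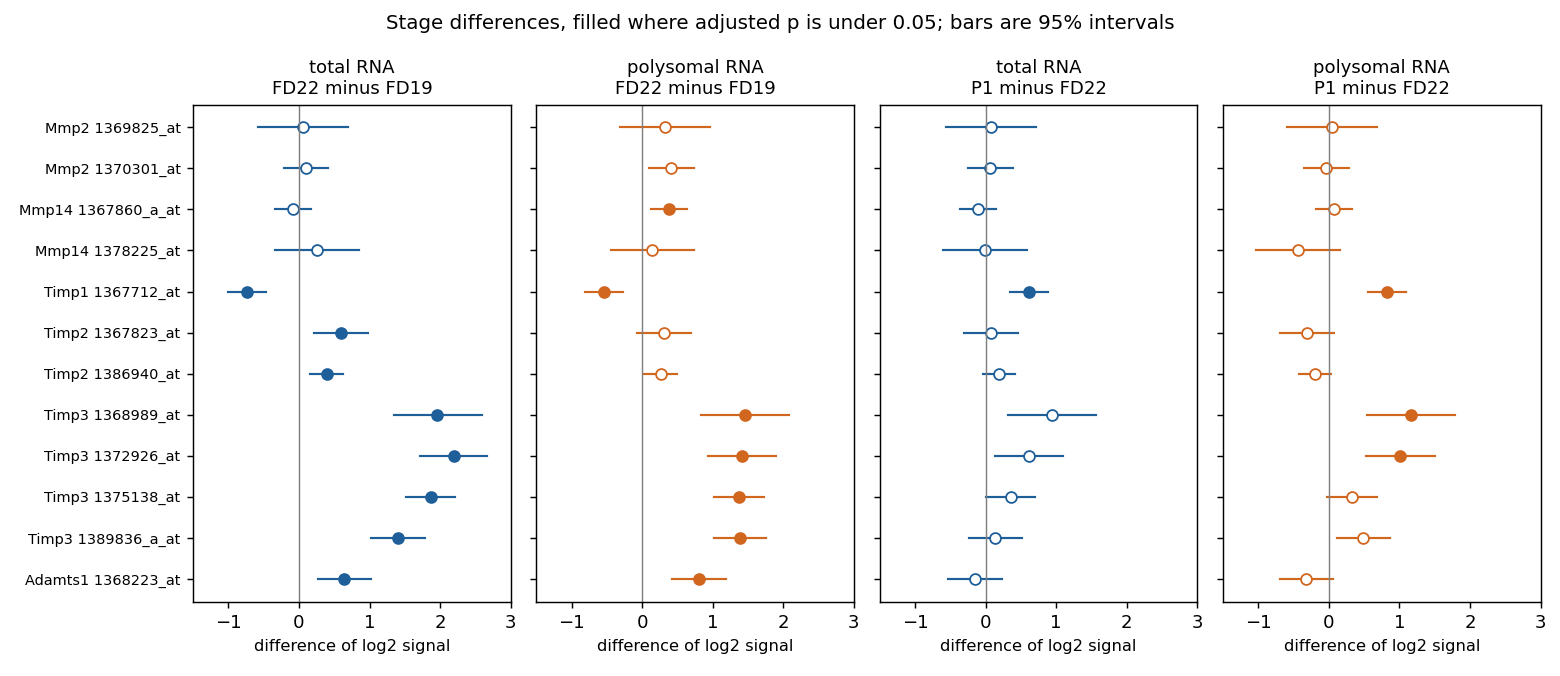
Difference of log2 signal (horizontal axis) with its 95% interval for each tested probe set (vertical axis), in total and polysomal RNA, for FD22 minus FD19 and P1 minus FD22; filled points have an adjusted p under 0.05. The Timp3 probe sets lie farthest to the right for FD22 against FD19, and Timp1 lies left of 0 for FD22 against FD19 and right of 0 for P1 against FD22.

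The polysomal to total ratio asks which messages were carried on large polysomes beyond their total level. Each array was scaled to the same mean, so a ratio of 1 does not stand for equal mass of RNA; the median log2 ratio of all probe sets, averaged over the stages, was -0.09. Timp1 stood above 1 in all 9 lysates, at 1.366, 1.297 and 1.396 at FD19, 1.662, 1.445 and 1.592 at FD22, and 1.763, 2.03 and 1.655 at P1. Averaged over the stages, the log2 ratio of Timp1 was 0.64 ± 0.0744 (limma, adjusted p = 1.91e-06), a call that held under every alternative. The stage values were 0.43 ± 0.129 at FD19 (adjusted p = 0.0232), 0.64 ± 0.129 at FD22 (0.00273) and 0.85 ± 0.129 at P1 (0.000187). The FD19 call was lost without FD19 replicate 1, 2 or 3 (0.0988, 0.104 and 0.141), after quantile normalization (0.0565) and with arrays numbered 2 and 3 only (0.0981).

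Mmp14 stood below 1 at FD19, with lysate ratios of 0.544, 0.736 and 0.758, and near 1 later, with 0.881, 0.875 and 1.044 at FD22 and 1.081, 0.985 and 1.099 at P1. The FD19 ratio was -0.57 ± 0.12 on the log2 scale (limma, adjusted p = 0.00277; 0.0572 without FD19 replicate 1 and 0.0581 with arrays numbered 2 and 3 only), and the FD22 and P1 ratios of -0.10 and 0.08 were not called (adjusted p = 0.586 and 0.703). Its mean ratio of -0.20 ± 0.0694 (adjusted p = 0.0247) was lost without FD19 replicate 1 (0.0942), FD22 replicate 1 (0.055), FD22 replicate 2 (0.0591) or P1 replicate 2 (0.0625), and with quantile normalization (0.18), median centring (0.154), no variance trend (0.0518) or arrays numbered 2 and 3 only (0.169). Its other probe set, 1378225_at, had an FD19 ratio of 0.38 ± 0.284, of the opposite sign and not called. With arrays numbered 2 and 3 only the mean ratio of 1378225_at was 0.48 (limma, adjusted p = 0.0199), against -0.14 for 1367860_a_at.

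Timp2 ran the other way. On 1386940_at its lysate ratios were 1.354, 1.348 and 1.281 at FD19, 1.408, 1.111 and 1.129 at FD22, and 0.897, 1.002 and 0.877 at P1. The FD19 ratio of 0.41 ± 0.11 was called (limma, adjusted p = 0.0137; 0.0779, 0.104 and 0.0795 without FD19 replicate 1, 2 and 3), and those at FD22 (0.27, adjusted p = 0.0986; 0.0355 with median centring) and P1 (-0.11, adjusted p = 0.506) were not. The mean ratio was 0.19 ± 0.0635 (adjusted p = 0.021; 0.0579, 0.0605 and 0.0588 without FD19 replicate 2, FD22 replicate 1 and P1 replicate 2, 0.0576 after quantile normalization and 0.0871 with arrays numbered 2 and 3 only).

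Among the remaining genes, the dim Mmp2 probe set 1369825_at had a called mean ratio of -0.49 ± 0.176 (limma, adjusted p = 0.0281), lost without FD19 replicate 1 or 2, FD22 replicate 3 or P1 replicate 1 (0.0776, 0.0648, 0.0986 and 0.0857). Quantile normalization brought it to -0.24 (adjusted p = 0.253) and median centring to -0.42 (0.0582), and the brighter probe set measured -0.07 ± 0.0879. The Timp3 probe sets gave mean ratios of -0.23, 0.00, 0.07 and 0.27, none called. That of 1372926_at, 0.27 ± 0.133, was called without FD22 replicate 1 (0.37, adjusted p = 0.0328) or P1 replicate 1 (0.37, 0.029), with median centring (0.34, 0.0461) and with arrays numbered 2 and 3 only (0.53, 0.00111), and that of 1375138_at after quantile normalization (0.32, 0.0132). Total and polysomal RNA come from the same lysate, and with the lysate as a block 3 more ratios were called. These were the mean ratio of Timp3 on 1389836_a_at (limma, adjusted p = 0.0149, against 0.0727) and the FD19 ratio on 1372926_at (0.0322, against 0.0524). The last was the mean ratio of Adamts1, -0.18, with an SE of 0.0633 under the block and 0.104 without it (limma, adjusted p = 0.0269, against 0.167). Without the block, leaving out FD19 replicate 1 gave FD19 ratios of 0.83 on 1372926_at (0.0471) and 0.74 on 1375138_at (0.00874).

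In all, 2 of the 12 probe sets had a higher and 1 a lower polysomal signal at FD19 (9.97% and 10.9% of all probe sets), and 1 was higher and none lower at FD22 (6.76% and 8.6%) and at P1 (8.12% and 10.4%), both times Timp1. Averaged over the stages 2 were higher and 2 lower, against 18.8% and 27.6% of all probe sets, shares near the background for so few probe sets.

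**Figure D4:**
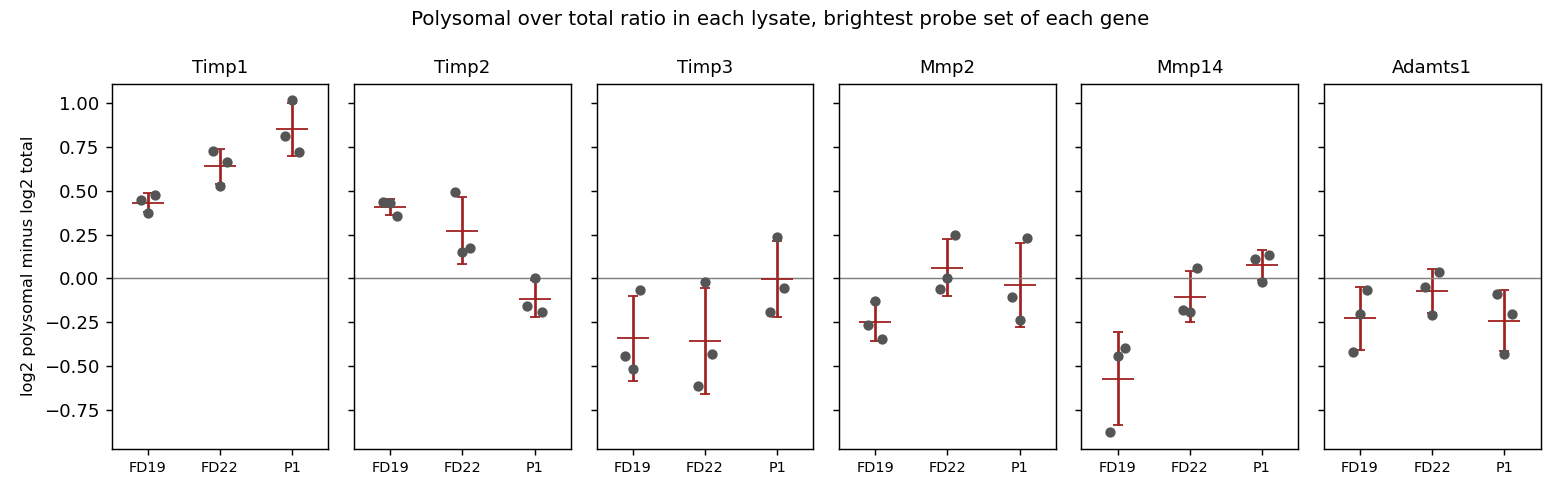
Log2 polysomal minus log2 total signal of the same lysate (vertical axis) for the brightest probe set of each gene at FD19, FD22 and P1 (horizontal axis), with 1 point per lysate and the mean and SD of 3; the grey line marks 0. Timp1 lies above 0 in all 9 lysates, Timp2 is highest at FD19 and Mmp14 lowest at FD19.

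Whether a ratio itself moved between stages was tested as the difference of the 2 stage differences. No member was called in any of the 3 such comparisons by limma, where 0, 3 and 25 of all 21675 probe sets were called (0%, 0.0138% and 0.115% for FD22 against FD19, P1 against FD22 and P1 against FD19). At an unadjusted p under 0.05 there were 3, 1 and 5 of the 12, beside 3.6%, 4.35% and 9.98% of all probe sets. From FD19 to P1 the ratio of Mmp14 moved by 0.65 ± 0.17 (adjusted p = 0.156; 0.0581 with the lysate as a block), that of Timp2 on 1386940_at by -0.52 ± 0.155 (0.213; 0.0846) and that of Timp1 by 0.42 (0.447; 0.163). In each of these the 3 P1 lysates did not overlap the 3 FD19 lysates. The share of all probe sets that separate in this way was not counted, so the separation adds no support. So the differing stage patterns of total and polysomal RNA for Mmp14 and Timp2 were not established as different from each other.

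Genes that act with these members were described from lists of their own, with 1 probe set per gene. Of 8 other metalloproteinases tested, out of 14 on the array, 2 rose and none fell from FD19 to FD22 in total RNA, where 9.68% of all genes rose and 10.3% fell. These were Mmp8, the neutrophil collagenase (1.06 ± 0.352; limma, adjusted p = 0.0472), and Mmp19 (0.65 ± 0.18, adjusted p = 0.0183). Mmp17, a membrane-anchored member, fell from FD22 to P1 in total RNA (-0.77 ± 0.168, adjusted p = 0.0126) and in polysomal RNA (-0.99 ± 0.168, adjusted p = 0.0013), the 1 gene of the list called in that step; over all genes 2.31% fell in total and 5.79% in polysomal RNA. Mmp11 was lower at P1 than at FD19 in polysomal RNA (-1.19 ± 0.283, adjusted p = 0.00347).

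Among 18 other ADAMTS and ADAM proteases, 3 rose and 2 fell between FD19 and P1 in total RNA (13.8% of all genes rose and 17.2% fell) and 4 rose and 1 fell in polysomal RNA (15.6% and 18.8%). Adam15 rose at both steps of total RNA, by 0.58 ± 0.137 and then 0.93 ± 0.137 (limma, adjusted p = 0.00608 and 0.000613). Adamts8 rose by 1.33 ± 0.207 from FD19 to P1 in polysomal RNA (adjusted p = 8.1e-05), while Adamts19 fell by 1.06 (SE 0.21, adjusted p = 0.000817).

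The plasminogen activators, whose product plasmin can activate proMMPs, rose before birth. Of 14 genes for other inhibitors and the plasminogen activator system, 4 rose and none fell from FD19 to FD22 in total RNA (9.68% of all genes rose and 10.3% fell), among them Plaur, the urokinase receptor (1.79 ± 0.364; limma, adjusted p = 0.00197), Plau, urokinase (1.21 ± 0.222, adjusted p = 0.000778), and Plat, tissue plasminogen activator (0.81 ± 0.175, adjusted p = 0.00331). Plat rose again from FD22 to P1, by 0.93 ± 0.175 (adjusted p = 0.00446). Reck, a membrane-anchored inhibitor of metalloproteinases, was lower at P1 than at FD19 in total RNA (-0.44 ± 0.154, adjusted p = 0.0399) and in polysomal RNA (-0.70 ± 0.154, adjusted p = 0.00199).

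Of 15 genes for docking, clearance and receptor partners, 6 rose and none fell from FD19 to FD22 in total RNA (9.68% of all genes rose and 10.3% fell), and 12 rose and 1 fell from FD19 to P1 in polysomal RNA (15.6% and 18.8%). Cd44, a hyaluronan receptor that can hold proteases at the cell surface, rose by 1.07 ± 0.166 from FD19 to FD22 in total RNA (limma, adjusted p = 0.000177). Cd63, a tetraspanin that binds Timp1, rose from FD22 to P1 by 0.47 ± 0.101 (limma, adjusted p = 0.0115) in total and by 0.38 ± 0.101 (adjusted p = 0.0245) in polysomal RNA. In that step 1 of the 15 rose and none fell in total RNA (2.62% of all genes rose and 2.31% fell). In polysomal RNA 3 rose and 2 fell (4.74% and 5.79%). Lcn2, which forms a complex with Mmp9, rose by 1.67 ± 0.315 from FD19 to P1 in total RNA (adjusted p = 0.000557).

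Of 24 matrix substrate genes, 2 rose and 1 fell from FD19 to FD22 in total RNA, near or below the 9.68% and 10.3% of all genes, and 7 rose and none fell in polysomal RNA (10.1% and 9.56% of all genes). The difference between those counts was not tested. Fn1, fibronectin, rose by 0.68 ± 0.12 in total RNA (limma, adjusted p = 0.000572) and by 1.15 ± 0.12 in polysomal RNA (adjusted p = 5.62e-06), and Col4a2, a basement membrane collagen chain, rose by 1.09 ± 0.219 in polysomal RNA (adjusted p = 0.00192). Averaged over the stages 14 of the 24 had a lower polysomal than total signal and 2 a higher one, beside 22.2% and 24.9% of all genes; Col4a1 stood at -0.98 ± 0.0728 (adjusted p = 6.47e-09), against 0.64 for Timp1 on the same measure.

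The list of AP-1, ETS and cytokine signals, which are known to act on metalloproteinase and TIMP promoters, had 20 genes tested. From FD22 to P1, 5 rose and none fell in total RNA (2.62% of all genes rose and 2.31% fell). In polysomal RNA 8 rose and none fell (4.74% and 5.79%). From FD19 to FD22, 5 rose and 1 fell in total RNA (9.68% and 10.3%). In polysomal RNA 8 rose and 1 fell in that step (10.1% and 9.56%). Stat3, a transcription factor of cytokine signalling, rose by 1.06 ± 0.181 from FD19 to FD22 in polysomal RNA (limma, adjusted p = 0.00049), and Tgfb2 fell by 1.41 in total RNA (SE 0.148, adjusted p = 3.45e-06). Il1b, an inflammatory cytokine, rose by 1.54 ± 0.315 from FD19 to FD22 in total RNA (adjusted p = 0.00202).

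The arrays matched their label as lung: Sftpc, surfactant protein C, read from 3836 to 9138.7 and Nkx2-1, a lung epithelial transcription factor, from 786.3 to 1559.9 over all 18 arrays. Array medians ran from 51.6 to 73.5, and arrays of 1 group correlated at 0.9327 to 0.9805 on the log2 scale. With 3 litters a group, the number of arrays limits the precision.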

How the data were processed

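Signals of 18 arrays (Affymetrix Rat 230 2.0) were used as deposited. They are linear intensity values made by the authors with GCOS 1.4, per the submitters' processing notes; the signal algorithm and genome build are not given in the sources used here. The 2% trimmed mean was 150 on every array, so no further scaling was applied. Gene names come from the platform annotation: 20826 of 31042 probe sets carry 1 gene, 436 several (unused here) and 9780 none.

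The 57 control probe sets were left out. Log2(signal + 5.5), the constant being the 10th percentile of all signals, entered a limma fit (version 3.58.1, R 4.3.3; 6 group means, 12 residual degrees of freedom, variance trend), for 13 comparisons. The filter of 40.8 is the 40th percentile. The fit was tested on simulated data. Genes were set in pattern by Pearson's r of their brightest probe sets, and the 3 highest are named; list genes named are the 3 largest called changes in each direction, of which examples are given. The members and lists were chosen with earlier results of these data known.

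Total and polysomal RNA of a lysate deviated together in 9 of 9 lysates (r = 0.186 to 0.488), so the lysate is a pair by design. Across stages litters differ, but equal replicate numbers deviated together, at over 0.1 in all 3 pairs, between FD19 and FD22 in polysomal RNA and between FD19 and P1 in total RNA. The arrays numbered 1 deviated together in every pair of stages of both RNA kinds (r = 0.313 to 0.498). Alternatives were the constant, filter, normalization, variance trend, block and each left-out litter.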

Additional observations from a re-analysis of the deposited data

How the results depend on the processing

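Of 156 results over members (12 probe sets in 13 comparisons), 39 were called as reported; 25 of these kept their call in every alternative run for them and 14 lost it in at least 1. Of the 117 not called, 17 gained a call in at least 1. No member result changed sign where it was called as reported or in the alternative. Over all alternatives 102 changes of sign occurred, each in a result called in neither run. The alternatives had 17 settings for the dim Mmp2 probe set, which a filter at the 60th percentile removes, and 18 for the others.

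Without the signal filter the changes of ratio called over all probe sets numbered 1 for P1 against FD22 (3 as reported) and 7 for P1 against FD19 (25 as reported); a 60th percentile filter gave 41 for the latter, and median centring 7. Quantile normalization left 2 members with a called mean ratio and called 1 change of ratio from FD19 to FD22. Median centring called 8 members for polysomal P1 against FD19 and 2 for the FD22 ratio. Without the variance trend 0 changes of ratio were called for P1 against FD22 and 0 for P1 against FD19.

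With arrays numbered 2 and 3 only, total RNA gave 2330 calls for FD22 against FD19 (3520 as reported) and 394 for P1 against FD22 (861; 0 members), polysomal RNA gave 2076 (3451) and 812 (1807), the P1 ratio called 2 members, and changes of ratio to P1 were 0 and 0.

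With the replicate block, calls for P1 against FD22 rose to 1400 in total RNA (2 members) and 2764 in polysomal RNA; the lysate as a block gave 5653 for the FD22 ratio (3329 as reported), 6058 for the P1 ratio (4004), and 17 and 226 for the changes of ratio from FD22 and FD19 to P1. No member call was lost under the block. Beyond those given beside their results it also called Timp3 1368989_at in total RNA from FD22 to P1 (limma, adjusted p = 0.0332), Mmp2 1370301_at (0.0113) and Adamts1 (0.0155) in polysomal RNA from FD19 to P1. In these comparisons equal numbers deviated together most for replicate 1 (r = 0.42 and 0.344) and less for the others (r = 0.0554 to 0.165).

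Leaving out 1 litter at a time gave 447 to 767 calls over all probe sets for total P1 against FD22, 1996 to 3549 for polysomal FD22 against FD19, 1075 to 1887 for polysomal P1 against FD22, 1700 to 4894 for the FD19 ratio (4525 as reported), 1268 to 3471 for the FD22 ratio, 1866 to 4287 for the P1 ratio, 0 to 20 and 0 to 97 for the changes of ratio from FD22 and FD19 to P1. Called members ranged from 5 to 8 for total FD22 against FD19, 0 to 2 for total P1 against FD22, 1 to 5 for the FD19 ratio and 2 to 4 for the mean ratio.

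Signals near background limit Mmp9 and the dim Mmp2 probe set. Without the filter the median log2 ratio of all probe sets at FD22 was -0.143, against -0.081 as reported.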
